A study of Bos taurus and Sus scrofa with 10 samples.

Results

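The blastocyst of the cow was compared with the blastocyst of the pig, gene by gene, in total RNA of embryos. The comparison used 2 of the 10 libraries of the study, which has 1 library in each species for the oocyte, the embryo of 2-4 cells, that of 8-16 cells, the morula and the blastocyst, 5 stages in all. The cow group is Bos taurus embryos at the blastocyst stage and the pig group is pig embryos at the same stage. The labels name no treatment, genotype, breed or age, and do not say how the embryos were produced, how many were pooled or how many hours after fertilisation they were collected. All libraries were made by amplifying a very small amount of RNA and then by a further PCR of 8 cycles. Species, embryo collection and alignment reference all change together between both libraries, so they cannot be told apart, and with 1 library per group no difference could be tested against replicates.

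Rows of both deposited tables were paired where they carry the identical gene symbol. There are 22845 gene rows for cow and 21867 for pig, of which 4144 and 5666 carry only a database identifier and were left out. This gave 13251 paired symbols. Because the tables were scaled separately, the measure used throughout is the percentile of a symbol among these 13251 symbols within its own library. All levels under 1 RPM were tied at the bottom, at percentile 18.2 in cow and 17.9 in pig. RPM is reads per 1000000 reads of the library total, which is the total implied by the level of 1 read. The percentile gap is the cow percentile minus the pig percentile. Symbols that reached 1 RPM in either library were compared, 9834 in all, while 3417 stayed below that in both. It was called higher in one species at a gap of 25 points or more. RPM values are given beside the percentiles as levels within one library only, and are not divided between species. Only where quantile-normalised log2 values are named were levels of both libraries put on a common scale. Where a pair of values is given without species, the cow value comes first. RPM does not correct for transcript length.

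The blastocyst is the stage at which the embryo forms a fluid-filled cavity. An outer epithelium, the trophectoderm, pumps the fluid and later gives rise to the placenta. The inner cell mass separates into the epiblast, from which the body arises and which carries the pluripotency factors, and the primitive endoderm (hypoblast), which lines the yolk sac and makes basement membrane. In cattle and pigs the blastocyst does not implant at this stage but floats in the uterus and later elongates. In whole-embryo RNA, fewer cells of a type and less RNA of a gene per cell cannot be told apart.

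The stage labels were checked against marker genes. All 5 paired trophectoderm markers had reads in both blastocyst libraries. Their summed level was 2771 RPM in cow and 6964 RPM in pig, against 122 and 508 RPM in the morula libraries. The oocyte markers stood low, with all 7 paired markers at 0 reads in the cow blastocyst and 3 of 7 at 0 reads in pig, where the sum was 22.3 RPM. Of the 6 epiblast markers only 3 were paired, and these differed. NANOG, SOX2 and PRDM14 summed to 52.7 RPM in cow and all 3 had 0 reads in the pig blastocyst. Of the markers not paired, KLF17 had 12.3 RPM in the pig blastocyst, and POU5F1 and KLF4 had 42.4 and 109 RPM in cow. Of the 6 primitive endoderm markers, FOXA2 had 0 reads in both libraries and SOX17 in pig.

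The cow blastocyst library was the deepest of the study at 14182046 total reads and the pig blastocyst library held 3729816. All 10 libraries lay between 3002751 and 14182046. Gene rows held 11577828 (81.6%) of the reads in the cow blastocyst and 3456345 (92.7%) in the pig blastocyst. By the limit of 3 reads, a count of 0 allows up to 0.212 RPM in cow and up to 0.804 RPM in pig. The upper end of the two-sided Wilson interval for 0 reads is wider, at 0.271 and 1.03 RPM, and was used only for the gaps between interval ends. These limits and the 95% Wilson intervals used below cover counting error only, since amplified reads are not independent molecules. The paired symbols held 44.5% of the cow and 66.8% of the pig blastocyst reads, and genes of the mitochondrial chromosome held 30.2% and 18.6% of all reads. The median paired symbol stood at 4.94 RPM in cow and 5.90 RPM in pig.

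Both species had about equally many symbols on their side. Of the 9834 compared symbols, 1465 (14.9%) were higher in cow and 1451 (14.8%) were higher in pig, 2916 (29.7%) in all. The median absolute gap was 15.6 points and the median gap was 0.42 points. Spearman's rho between both percentiles across these symbols was 0.55, a description across genes, which are not independent replicates. When the gap was taken between the nearest ends of both 95% Wilson intervals, 556 symbols (5.65%) were higher in cow and 989 (10.1%) in pig. A call that is not made on this measure is described below as lost to counting error. The label says only that the gap between the nearest ends was below 25 points, in some cases by a few points. It does not say that both intervals overlap. The symbols just inside the threshold were BDH2 for cow with 25.03 points and RHOC for pig with -25.02 points. Just outside stood TMX4 with 24.98 and MRM3 with -24.96 points. The share called at the other stages was of the same order, at 30.5% for oocytes, 32.7% at 2-4 cells, 29.9% at 8-16 cells and 26.7% for morulae.

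**Figure D1:**
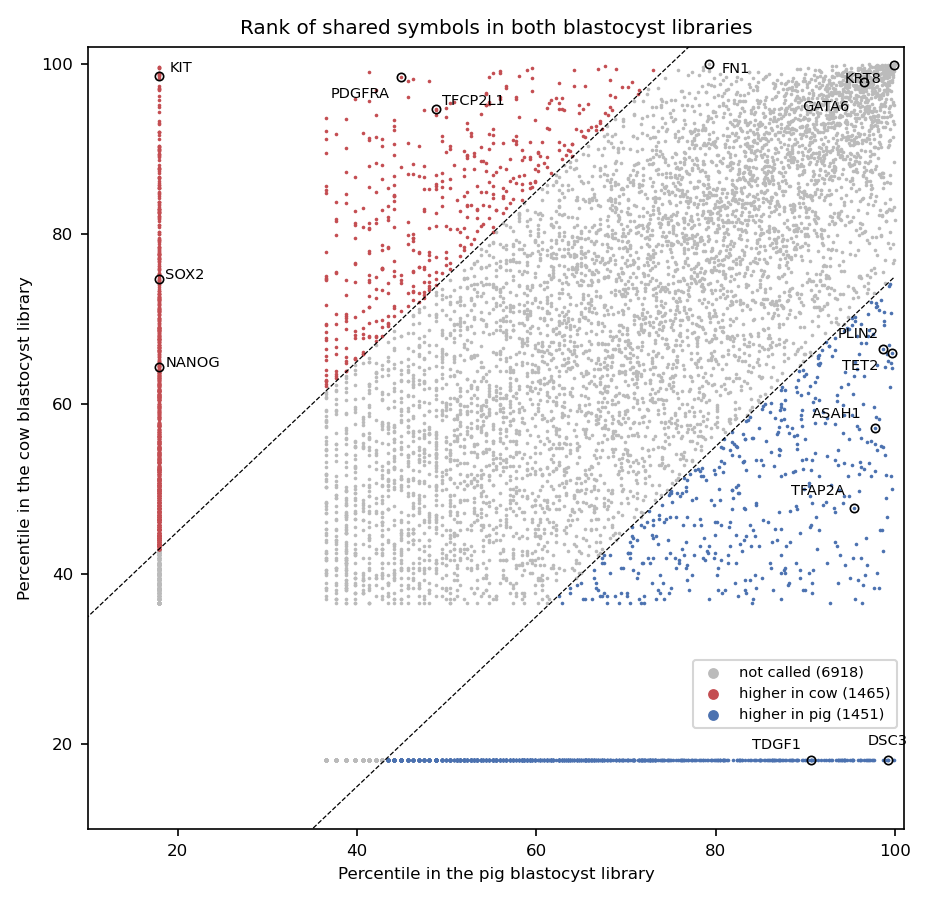
Each point is 1 of the 9834 compared symbols, with its percentile in the pig blastocyst library on the x axis and in the cow blastocyst library on the y axis; dashed lines mark a gap of 25 points. The points along the left and lower edges are symbols under 1 RPM in pig or in cow, and KRT8 and GATA6 lie near the top of both libraries while SOX2 and NANOG lie on the left edge and TDGF1 on the lower edge.

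The paired rows do not always describe the same stretch of gene in both tables, and this moved with the calls. The genomic span of a row, introns included, was within 1.5-fold between the tables for 64.8% of all compared symbols, 69.4% of those higher in cow and 49.3% of those higher in pig. The pig row was the longer one by more than that for 49.3% of the symbols higher in pig, against 31% of all compared symbols and 17.3% of those higher in cow. The cow row was the longer one for 13.3% of the symbols higher in cow, against 4.2% of all and 1.45% of those higher in pig. Among the 6369 symbols with spans within 1.5-fold, 1017 (16%) were higher in cow and 715 (11.2%) in pig, 27.2% together, and rho was 0.62. The part of gene models in the calls was not tested, and for that reason called genes below whose rows differ by more than 1.5-fold are marked as of unequal span. "Similar span" means within 1.5-fold.

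**Figure D2:**
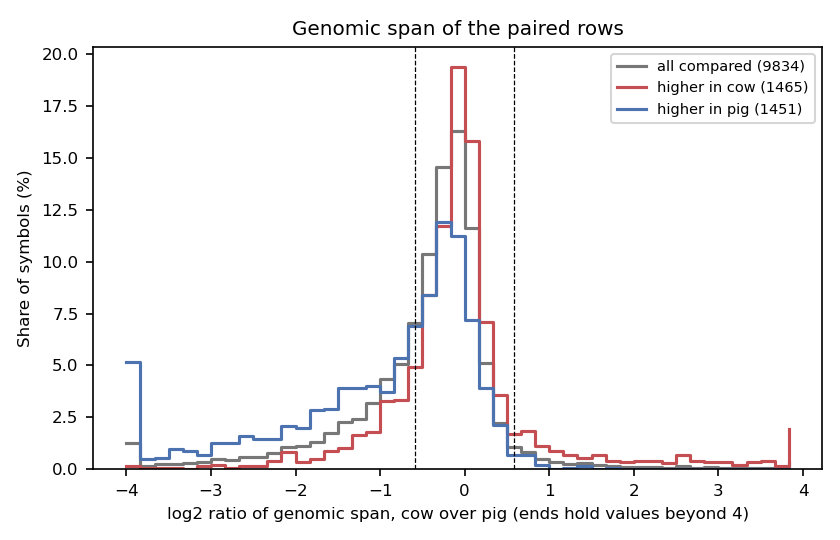
The x axis is the log2 ratio of the genomic span of a row in cow over pig and the y axis the share of symbols in percent, for all 9834 compared symbols (grey), the 1465 higher in cow (red) and the 1451 higher in pig (blue); dashed lines mark a ratio of 1.5 either way. The line for symbols higher in pig is shifted to the left, with a median ratio of 0.67 against 0.83 for all compared symbols, and the line for symbols higher in cow has a median of 0.95.

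Many calls were an absence of reads in one library. Of the symbols higher in cow, 1010 were under 1 RPM in pig and 742 of them (50.6% of the 1465) had 0 pig reads. Of the symbols higher in pig, 981 were under 1 RPM in cow and 481 (33.1% of the 1451) had 0 cow reads. For 151 symbols higher in cow the pig table had 0 reads at all 5 stages, and 51% of these had a similar span, against 71.5% of the other symbols higher in cow. For 127 symbols higher in pig the cow table had 0 reads at all 5 stages.

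Most symbols called at the blastocyst stage were not called at the morula. The shares called alike there were nonetheless above those of all symbols compared at the morula. Of these, 12.6% were higher in cow and 14.2% higher in pig. Of the symbols higher in cow at the blastocyst stage, 488 (33.3%) were called in the same direction at the morula and 702 (47.9%) at none of the other 4 stages, while 114 (7.78%) were higher in cow at all of them. Of those higher in pig, 556 (38.3%) were called alike at the morula, 628 (43.3%) at no other stage and 188 (13%) at all 4. Similar spans made up a smaller share of the symbols called at every stage: 40.4% of the 114 had a similar span against 75.8% of the 702, and 27.7% of the 188 against 58.9% of the 628.

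The gaps were accompanied by level changes within each species between morula and blastocyst, measured on log2(RPM + 1) with a change of 2 or more counted. Among the symbols higher in cow, 411 had a higher level in the blastocyst than in the morula within cow and 87 a lower one, and within pig 33 had a higher and 372 a lower level. Among the symbols higher in pig, 468 had a higher and 62 a lower level in the pig blastocyst than in the pig morula, and in cow the counts were 35 and 234. Over all compared symbols the counts were 1192 higher and 833 lower in cow, and 1422 higher and 1009 lower in pig. The blastocyst values enter both the gap and the change, so these counts describe where the gap lay and are not independent of it.

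The 12 genes named for the largest gap on the cow side, all with at least 20 RPM and no overlap with another row, had differing functions. KIT, the receptor tyrosine kinase for stem cell factor (cow UMD3.1, chromosome 6, 71796318 to 71917431; pig Sscrofa11.1, chromosome 8, 41402322 to 41492977), had levels in cow of 243 RPM in the oocyte, 364, 48.4 and 10.3 RPM in the next 3 stages and 288 RPM in the blastocyst. In pig it had 45.3, 37.0, 21.8, 19.3 and 0.27 RPM over the same stages, the last from 1 read. In both species KIT was lower in the morula than in the oocyte. From there the cow level was higher and the pig level lower at the blastocyst, where KIT stood at percentile 98.5 in cow and at the bottom in pig, a gap of 80.6 points with a similar span.

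The ligand of KIT stood the other way round. KITLG (stem cell factor) had 19.1, 14.2, 284, 176 and 6.35 RPM from oocyte to blastocyst in cow and 106, 35.8, 48.0, 193 and 297 RPM in pig, again with a similar span. At the blastocyst stage it stood at percentile 53.0 in cow and 97.1 in pig, a gap of -44.1 points, while at the morula it stood at percentiles 94.4 and 94.2. The cow blastocyst library was therefore high in the receptor and the pig blastocyst library in the ligand.

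SLC2A9, which encodes a urate and hexose transporter, had 337 RPM in the cow blastocyst and 0.27 RPM in pig, with at most 14.4 RPM at the earlier cow stages. SLC9A9, an endosomal sodium/proton exchanger, had 153 RPM in cow and 0.80 RPM in pig. A2M, the protease inhibitor alpha-2-macroglobulin, had 0 reads at all 4 earlier stages in both species, then 166 RPM in the cow blastocyst and 0 in pig. Its rows span 48.5 kb in cow (chromosome 5, 101298127 to 101346611) and 47.9 kb in pig (chromosome 5, 62437647 to 62485537), so A2M had reads in the cow blastocyst alone among the 10 libraries. GXYLT2, a xylosyltransferase of the Notch pathway, had 135 RPM in cow and 0 in pig. RAPGEF5, an exchange factor for Rap proteins, had 204 and 0.54 RPM, and CCDC152 had 189 and 0 RPM, with cow rows of 0.66 and 0.65 times the pig length.

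A further 4 of the 12 had a cow row more than 2 times as long as the pig row. HNRNPF, an RNA-binding splicing regulator, had 345 RPM in the cow blastocyst and 0 pig reads at every stage, but its pig row spans 4.79 kb against 18.6 kb in cow and lies on chromosome X in pig and on chromosome 28 in cow. UQCRFS1, a subunit of respiratory complex III, had 263 RPM in cow and 0 pig reads at every stage, with a pig row of 1.08 kb against 4.78 kb. TXN (thioredoxin) had 194 RPM in cow and 0 reads at every pig stage, with 3.75 kb against 7.78 kb. KIF23, a kinesin of cytokinesis, had 198 RPM in cow and 0.27 RPM in pig, with 5.54 kb against 40.5 kb. Of the 12 symbols named for the largest cow gap, 5 had a similar span.

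On the pig side, among genes with at least 20 RPM and no overlapping row, the largest gap was that of DSC3, a desmosomal cadherin, with 0, 4.35, 6.95, 271 and 663 RPM from oocyte to blastocyst in pig. In cow it had 0, 0, 29.8, 24.9 and 0.07 RPM, so that DSC3 was present in the cow 8-16 cell embryo and morula and came to 1 read in the cow blastocyst. PDGFC, a ligand of the PDGF receptor alpha, had 476 RPM in pig and 0.07 RPM in cow. COLEC11, a secreted lectin of innate immunity, had 521 RPM in pig and 0 in cow. The cow rows of DSC3, PDGFC and COLEC11 had 0.50, 0.47 and 0.64 times the pig length. ABCA12, a lipid transporter of epidermal cells, had 208 RPM in pig and 0 in cow with a similar span.

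PRAP1, a secreted protein rich in proline, had 0 reads at all 4 earlier pig stages and 336 RPM in the pig blastocyst, against 0.85 RPM in cow, with a similar span. RHOV, a small GTPase, had 282 RPM in pig and 0.35 RPM in cow, and at most 0.63 RPM at any earlier stage of either species. ARG1, the arginase of the urea cycle, had 243 RPM in pig and 0.14 RPM in cow. WDR72 had 244 and 0.63 RPM and the kinase CDKL2 had 210 and 0.21 RPM in pig and cow. The cow rows of RHOV, ARG1, WDR72 and CDKL2 had 0.41, 0.38, 0.59 and 0.31 times the pig length. CDKL2 nevertheless had reads at every earlier cow stage, at 153, 143, 30.4 and 22.8 RPM.

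NCOA7, a nuclear receptor coactivator, had 524 RPM in pig and 0.35 in cow, but its row spans 151 kb in pig against 11.8 kb in cow. CD3G, a T cell receptor subunit, had 327 RPM in pig and 0 in cow, with a pig row of 71.5 kb against 7.17 kb, and it had 87.8 RPM or more at every pig stage from the oocyte on. BMPR1B, a type I BMP receptor, had 322 RPM in pig and 0 in cow with 305 against 51.3 kb. BMPR1B did have reads on its shorter cow row earlier, at 151, 186, 24.9 and 5.39 RPM. Of the 12 symbols named for the largest pig gap, 2 had a similar span.

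**Figure D3:**
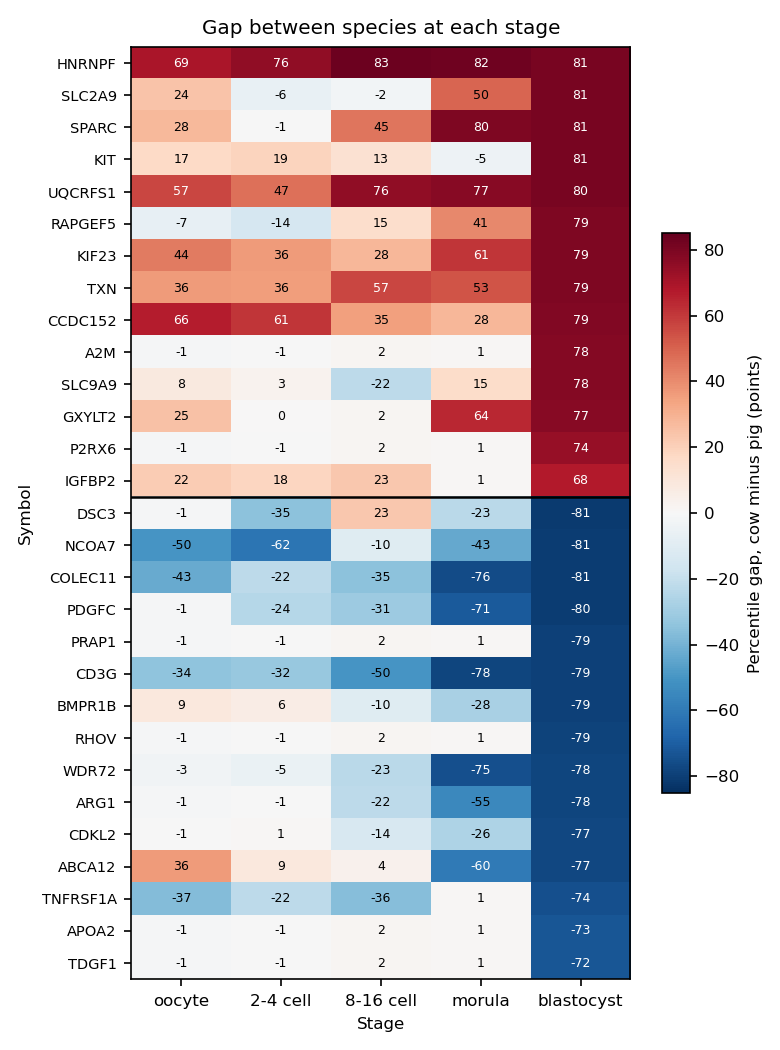
Rows are symbols named for the largest blastocyst gaps or for a large gap that was under 10 points at the morula (cow side above the line, pig side below); columns are the 5 stages; colour and number give the percentile gap, cow minus pig, in points. HNRNPF, UQCRFS1 and KIF23 are high in cow in every column, whereas A2M, IGFBP2, P2RX6, PRAP1, APOA2 and TDGF1 differ by less than 10 points at the morula and by more than 65 points at the blastocyst.

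Called symbols with a small gap at the morula made up about equal shares of both sides. A symbol under 1 RPM in both morulae has a morula gap of 0.95 points, so a tie at the floor counts as a small gap. How many of all compared symbols had so small a gap was not determined, so these shares have no background. Of the 1465 symbols higher in cow, 475 (32.4%) had a morula gap under 10 points, and of the 1451 higher in pig 448 (30.9%) did. On the cow side these included, beside A2M and KIT, P2RX6, an ATP-gated channel, with 95.8 RPM in cow and 0 reads at all earlier stages of both species, and IGFBP2. IGFBP2, a binding protein for insulin-like growth factors, had 5.64 RPM in the cow morula and 54.9 RPM in the cow blastocyst, against 6.99 and 0 RPM in pig. On the pig side they were, beside PRAP1 and RHOV, TNFRSF1A (the TNF receptor) with 0.28 RPM in cow and 145 RPM in pig, APOA2 and TDGF1. All of these except RHOV had a similar span.

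Of 22 compared trophectoderm transcription factors, 4 were higher in cow and 3 in pig, with a median gap of -3.60 points. The share called, 31.8%, was near the 29.7% of all compared symbols. GATA3, a factor that directs trophectoderm fate, had 78.8 RPM in cow and 173 RPM in pig and stood at percentiles 89.9 and 94.0. GATA2 had 76.9 and 134 RPM, TFAP2C had 105 and 346 RPM, and KLF5 had 449 and 529 RPM, all with gaps under 5 points. TEAD4, the partner of YAP in the outer cells, stood lower in cow, with 8.46 against 38.9 RPM and a gap of -19.1 points, short of the threshold. KRT8 and KRT18, the keratins of simple epithelia, were among the most abundant symbols of both libraries, with 1490 and 1021 RPM in cow and 3629 and 2681 RPM in pig, and both stood at percentile 99.9 in each.

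The factors that did differ fell on both sides. TFAP2A, a paralog of TFAP2C, had 4.09 RPM in cow and 212 RPM in pig, a gap of -47.6 points with a similar span. Its pig level was 0.33 RPM in the morula and between 5.05 and 5.92 RPM before that, and its cow levels lay between 0.61 and 5.71 RPM over all stages. ELF5, a factor of trophoblast stem cells, came to 1 read (0.07 RPM) in the cow blastocyst and 12.3 RPM in pig, where the morula already had 13 RPM. DLX3, GCM1 and NR2F2 were higher in cow: DLX3 had 13.5 and 0.80 RPM, a call lost to counting error, GCM1, a factor of placental differentiation, had 19 and 0.80 RPM on unequal spans, and NR2F2 had 22.4 and 0.27 RPM. DLX3 and GCM1 were under 1 RPM at every earlier cow stage. NR2F2 in pig had 28.0 RPM in the morula. EOMES had 0 reads in both blastocyst libraries.

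The epiblast and pluripotency list had the highest median gap of the 28 gene lists. Of 19 compared members, 10 were higher in cow and 2 in pig, and the median gap was 26.94 points, against 14.9%, 14.8% and 0.42 points over all compared symbols. Among the 13 members with a similar span the counts were 7 and 1 with the same median. Of the 10 calls higher in cow, those of PRDM14, UTF1, LIN28A, PRDM1 and IFITM3 were lost to counting error. NANOG (cow chromosome 5, 101871073 to 101876226; pig chromosome 5, 62932575 to 62939035) had 0, 0, 116, 76.4 and 14.5 RPM from oocyte to blastocyst in cow and 0, 2.42, 2.53, 2.66 and 0 RPM in pig. Its level was thus highest in the cow 8-16 cell embryo and at most 2.66 RPM in any pig library.

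SOX2 had 9.53, 15.1, 2.76, 14.9 and 27.3 RPM in cow and 1.18, 1.93, 2.53, 10.3 and 0 RPM in pig. The SOX2 row spans 1.46 kb in cow (chromosome 1, 85933323 to 85934782) and 6.36 kb in pig (chromosome 13, 119663183 to 119669539), so the library with 0 reads was counted over the longer row. PRDM14, a repressor of differentiation, had 11 RPM in the cow blastocyst and 0 in pig, after 15.3 RPM in the pig morula. SALL1 had 15.2 and 0 RPM, and UTF1 had 10.3 and 0.27 RPM. The levels of these genes are low, and the calls of PRDM14 and UTF1 were lost to counting error.

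TFCP2L1, a factor of naive pluripotency, had a higher level: 131 RPM in the cow blastocyst, after 7.95 RPM in the morula, against 5.36 RPM in pig, a gap of 45.9 points. LIN28A, an RNA-binding protein of pluripotent cells, had 24.5 and 2.41 RPM, also a call lost to counting error. OTX2 had 32.9 RPM in cow and 0 reads at every pig stage, and its cow row is 4.85 times as long. On the pig side, TDGF1 (Cripto, the co-receptor of NODAL; cow chromosome 22, 53432383 to 53437016; pig chromosome 13, 29540411 to 29543802) had 117 RPM in the pig blastocyst and at most 0.33 RPM in every other library, the cow blastocyst included. SOX15 had 3.38 and 40.2 RPM, with a cow row of 0.09 times the pig length. SALL4 stood at like ranks, with 49.8 and 80.2 RPM and a gap of -2.15 points. POU5F1 and KLF4 had a named row in the cow table, at 42.4 and 109 RPM, and CDX2, KLF17 and DPPA5 in the pig table, at 8.85, 12.3 and 16.6 RPM. These 5 were not compared.

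The primitive endoderm list had 6 members higher in cow and 2 in pig of 23 compared (34.8% in all, beside 29.7% of all compared symbols), with a median gap of 9.79 points. PDGFRA, the receptor that marks primitive endoderm (cow chromosome 6, 71373513 to 71421283; pig chromosome 8, 40977604 to 41018506), had 4.46, 0, 198, 130 and 270 RPM over the stages in cow and 0, 1.21, 0.32, 1.33 and 3.75 RPM in pig, a gap of 53.5 points at the blastocyst. Its ligand PDGFC, described above, was high in the pig library. The basement membrane genes NID1 and NID2 (nidogens) had 38.3 and 79.8 RPM in cow and 0 and 0.27 RPM in pig. NID2 was abundant in pig earlier, with 162 RPM in the oocyte and 5.99 RPM in the morula. SPARC, a matrix glycoprotein, had 305 RPM in cow and 0 reads at every pig stage, on rows of 1.77-fold unequal span.

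GATA6, the factor that specifies primitive endoderm, was not called. It had 226 RPM in cow and 261 RPM in pig and stood at percentiles 97.9 and 96.6, and in both species it first exceeded 100 RPM at the morula, with 232 and 234 RPM. GATA4 had 6.21 and 4.02 RPM and HNF4A 20.03 and 6.70 RPM, both short of the threshold. SOX17 had 0.28 RPM in cow and 0 in pig. APOA2, an apolipoprotein, was higher in pig, with 120 RPM there and 0 reads in each of the other 9 libraries.

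FN1 (fibronectin; cow chromosome 2, 103881402 to 103950562; pig chromosome 15, 117658843 to 117730867) was the most abundant paired symbol outside the mitochondrial chromosome in the cow blastocyst, with 4843 RPM after 56.4 RPM in the morula. In pig it had 48.8 RPM after 5.33 RPM. The percentile gap was 20.7 points and FN1 was therefore not called, since percentiles are compressed at the top of the scale. On quantile-normalised log2 values, which keep distances there, the same pair differed by 7.09, with a similar span.

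**Figure D4:**
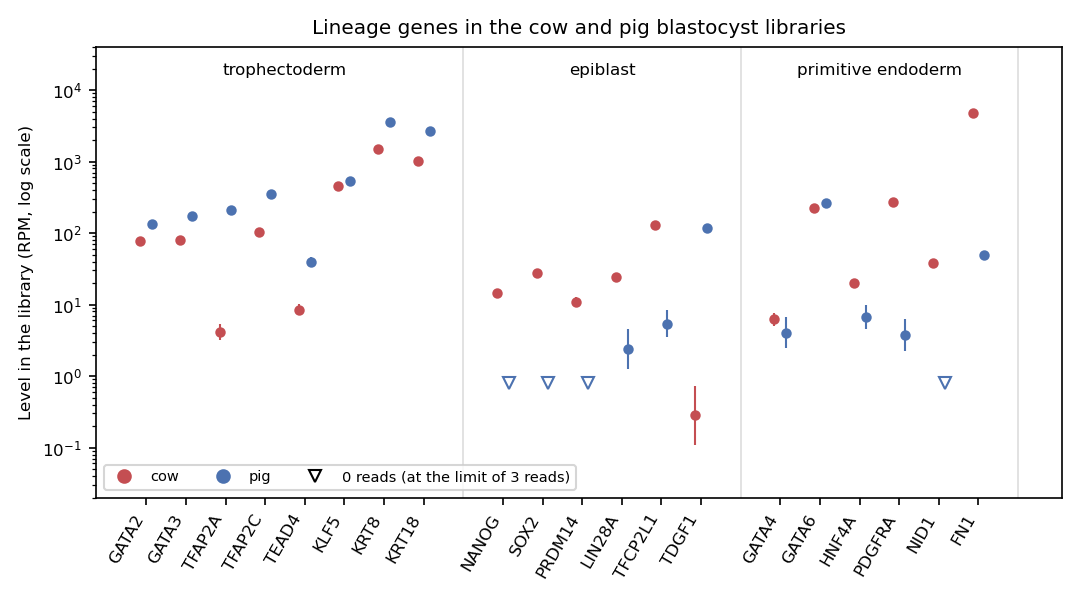
The y axis (log scale) gives the level in RPM of lineage genes in the cow (red) and pig (blue) blastocyst library, 1 library each, with 95% Wilson intervals; open triangles mark 0 reads, drawn at the limit of 3 reads. Both species share the axis without common scaling. KRT8, KRT18, GATA3 and GATA6 have points of both species close together. NANOG, SOX2 and PRDM14 have a cow point above an open pig triangle. TDGF1 and TFAP2A have the pig point far above the cow point.

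Of 40 compared epithelial junction genes and keratins, 3 were higher in cow and 7 in pig, 25% in all beside 29.7% of all compared symbols, and the median gap was -0.03 points. DSP, DSG2, PKP2, TJP1, OCLN and CTNNB1, which build desmosomes, tight junctions and adherens junctions, all had gaps within 3 points. KRT7 had 23.8 RPM in cow and 0.27 in pig, and the cadherin CDH3 had 24.7 RPM in cow and 0 in pig, both with a similar span. The desmosomal genes DSC3 and PKP1 were higher in pig, PKP1 with 0.21 RPM in cow and 9.92 RPM in pig on rows of similar span. CLDN7, a claudin of tight junctions, had 7.69 and 281 RPM, with a cow row of 0.13 times the pig length that overlaps another row. GJA1 (connexin 43) had 0.85 and 5.36 RPM, a call lost to counting error.

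Blastocoel fluid is moved by ion pumps and by water channels. Of the 13 compared members of this list, 3 were higher in cow and 3 in pig (46.2% in all, beside 29.7%), with a median gap of 2.04 points. The water channel AQP3 had 7.71, 5.41, 112, 765 and 151 RPM over the stages in cow and 0, 0, 0, 0.33 and 73.5 RPM in pig. Its gap was 10.7 points at the blastocyst, whereas at the morula AQP3 stood at percentile 99.6 in cow and at the bottom in pig. AQP11 was higher in cow, with 6.35 and 0.27 RPM, a call lost to counting error, and AQP9 in pig, with 0 and 81.5 RPM on rows of unequal span.

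Ion transporters of the list were also divided. CFTR, the chloride channel, had 0.56 RPM in cow and 55.8 RPM in pig with a similar span, although cow levels were 205, 151, 54.5 and 12.6 RPM at the preceding stages. SLC9A2, a sodium/proton exchanger, had 0 and 13.9 RPM. SLC4A7, a sodium/bicarbonate carrier, had 133 RPM in cow and 5.90 RPM in pig.

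Of the LIF, IL6 and JAK-STAT genes, 1 of 23 compared members was higher in cow and 7 in pig. This was 34.8% in all, beside 29.7% of all compared symbols, with a median gap of -5.43 points. The member higher in cow was STAT3, the transcription factor at the end of the pathway, with 107 RPM against 7.51 RPM. Its levels were 533, 750, 66.3 and 30.8 RPM at the earlier cow stages and 102, 74.4, 59.1 and 11.7 RPM in pig. Members higher in pig were the ligand LIF (0 and 9.65 RPM), its receptor LIFR (2.40 and 27.1 RPM), the feedback inhibitor CISH (0.07 and 30.6 RPM) and the phosphatase PTPN6 (0.99 and 78.8 RPM). The call of LIFR was lost to counting error, with a gap of -27.8 points that was -21.7 points at the nearest ends. None of the 7 had a similar span: their cow rows were between 0.12 and 0.64 of the pig length. The shared receptor subunit IL6ST had 193 and 247 RPM and a gap of 0.77 points, and IL6R had 62.5 and 33.2 RPM.

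In the FGF and ERK list, 5 of 32 were higher in cow and 1 in pig. This was 18.8% in all, beside 29.7% of all compared symbols, with a median gap of 2.11 points. The receptor FGFR4 had 20.8 RPM in cow and 0.80 in pig, the ligand FGF1 13.5 and 0 RPM, and SPRY4, a feedback inhibitor of ERK signalling, 26.2 and 0 RPM, all 3 with a similar span. SPRY2 was higher in cow as well, with 5.22 and 0 RPM on unequal spans, a call lost to counting error. HRAS was higher in pig, with 0.21 and 7.51 RPM.

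In WNT signalling, 5 of 33 were higher in cow and 7 in pig (36.4% in all, beside 29.7%), with a median gap of 2.28 points. PORCN, the acyltransferase that lipidates WNT ligands, had 45.1 RPM in cow and 0.27 in pig on unequal spans. TCF7 had 37.2 and 1.34 RPM, whereas LEF1, a related transcription factor of the same pathway, had 0 and 12.3 RPM, both with a similar span. DKK3, a member of the Dickkopf family, had 0 RPM in cow and 49.9 RPM in pig. The receptors FZD4 and FZD5 were higher in pig, with 0.85 and 48.0 RPM and with 0.71 and 16.1 RPM, on unequal spans, and the call of FZD5 was lost to counting error.

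In the NODAL, activin and BMP list, 4 of 33 were higher in cow and 9 in pig. This was 39.4% in all, beside 29.7% of all compared symbols, with a median gap of -6.71 points. Of the 20 with a similar span, 1 was higher in cow and 6 in pig. The 9 higher in pig included GDF9, which is also on the oocyte list. Besides TDGF1 and BMPR1B, the ligands BMP4 (1.06 and 29.5 RPM) and BMP6 (0.56 and 6.97 RPM) and the activin antagonist FST (0 and 11.5 RPM) were higher in pig. SMAD1, a transducer of BMP receptors, had 139 RPM in cow and 9.12 RPM in pig, and BAMBI, a decoy receptor, had 16.9 and 1.61 RPM. BMP4, BMPR1B and SMAD1 have unequal spans, and the calls of BMP6 and BAMBI were lost to counting error. Of 31 compared Hippo pathway genes, 3 were higher in cow (TEAD2, TEAD3 and CTGF) and 1 in pig (PARD6B). This was 12.9% in all, beside 29.7%, with a median gap of 6.18 points. All of these 4 calls were lost to counting error. At the nearest ends PARD6B and TEAD3 kept gaps of -23.0 and 20.9 points, CTGF and TEAD2 of 12.55 and 6.12 points.

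Prostaglandin and steroid synthesis genes are of interest because the conceptus of each species signals to the mother. Of 21 compared, 3 were higher in cow and 5 in pig (38.1% in all, beside 29.7%), with a median gap of -0.04 points. PTGS2 (cyclooxygenase 2) stood at the top of both libraries, with 902 RPM in cow and 1809 RPM in pig, after 1.54 and 12.3 RPM in the morulae. PTGES, the prostaglandin E synthase, had 13.5 and 262 RPM, a gap of -33.2 points with a similar span. CYP11A1, which makes pregnenolone from cholesterol, had 16.6 RPM in cow and 0 in pig, and HSD17B7 had 0.78 and 42.9 RPM. CYP19A1 (aromatase) had 48.8 and 20.4 RPM, short of the threshold at 17.8 points.

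In the interferon response list, 5 of 20 were higher in cow and 2 in pig (35% in all, beside 29.7%), with a median gap of 19.05 points beside 0.42 points over all compared symbols. Levels were low: of the 13 members not called, RSAD2, CMPK2, TRIM25 and IRF8 had between 1.06 and 1.90 RPM in cow and 0 reads in pig. IFNGR1, an interferon gamma receptor subunit, had 24.8 and 0.80 RPM, IRF5 had 17.0 and 0 RPM, and B2M had 32.8 and 0 RPM on a cow row of 0.16 times the pig length. The RNA sensors IFIH1 (0.71 and 54.4 RPM) and DDX58 (11.5 and 161 RPM, unequal spans) were higher in pig. Interferon tau, the signal of pregnancy in ruminants, has a named row in the cow table only, with 5 reads (0.35 RPM). Of 5 paired pregnancy recognition genes, 3 were compared and 2 were higher in pig (66.7%, beside 29.7%). PAG6 had 0 and 95.2 RPM on a cow row of 0.06 times the pig length that overlaps another row. IL1RAP had 0.56 and 4.02 RPM, a call lost to counting error. PAG2, of the same family as PAG6, is named in the cow table only. It had 0 reads at the earlier cow stages and 98.6 RPM in the cow blastocyst. The pregnancy-associated glycoproteins are a multigene family, so their values are uncertain.

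Of 35 compared genes of glucose uptake and glycolysis, 7 were higher in cow and 4 in pig (31.4% in all, beside 29.7%), with a median gap of 8.90 points. SLC2A2, the low-affinity glucose transporter, had 0 reads in cow at all 5 stages and 0, 0, 1.58, 24.0 and 170 RPM in pig. HK1 (hexokinase) had 53.9 RPM in cow and 5.36 RPM in pig, and SLC16A7, a pyruvate and lactate carrier, had 33.5 and 0 RPM, both with a similar span. ENO3 had 0.63 and 205 RPM with a cow row of 0.45 times the pig length. LDHB, a lactate dehydrogenase subunit, had 140 RPM in cow and 3092 RPM in pig, where it was among the 5 most abundant paired symbols outside the mitochondrial chromosome. Its percentiles were 95.2 and 99.9.

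Lipid genes were called in both directions: 10 of 54 were higher in cow and 14 in pig. This was 44.4% in all, beside 29.7% of all compared symbols, with a median gap of -4.08 points. Both counts were smaller at the nearest ends of the Wilson intervals, as given in the last section. PLIN2, the coat protein of lipid droplets (cow chromosome 8, 25129168 to 25142901; pig chromosome 1, 203683875 to 203713121), had 57.0, 91.7, 17.5, 38.5 and 16.1 RPM over the stages in cow and 133, 18.6, 16.4, 317 and 1109 RPM in pig. It stood at percentiles 66.0 and 99.7 at the blastocyst and the cow row has 0.47 times the pig length. PLIN3, a related coat protein, stood the other way, with 42.6 RPM in cow and 2.68 RPM in pig.

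Other lipid genes were called on either side. GPAM, which starts triglyceride synthesis, had 18.4 and 286 RPM, and INSIG1, a sterol sensor, had 4.16 and 102 RPM, both higher in pig with a similar span. LIPE and LPL, a hormone-sensitive and a secreted lipase, had 0 reads in cow and 30.0 and 11.5 RPM in pig, LIPE on unequal spans. On the cow side, ACSL4, which activates arachidonate, had 52.8 and 0 RPM on unequal spans, the fatty acid binding protein FABP5 had 16.4 and 0 RPM, and VLDLR, a lipoprotein receptor, had 13.1 and 0.54 RPM, a call lost to counting error.

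Nutrient transporters were called in about as many cases on each side, 8 in cow and 9 in pig of 33 compared. This was 51.5% in all, beside 29.7% of all compared symbols, with a median gap of -8.33 points. The cow calls of SLC15A1, SLC1A5, SLC20A2 and SLC38A9 and the pig call of SLC30A1 were lost to counting error. Fewer calls were therefore left in cow than in pig. SLC1A1, a glutamate carrier, had 571 RPM in cow and 0 in pig on rows of unequal span that overlap others. SLC34A2, a phosphate carrier, had 352 and 10.2 RPM on rows of 1.51-fold unequal span, SLC38A2 had 76.2 and 8.04 RPM, and SLC39A8, a zinc carrier, had 31.7 and 0 RPM. Higher in pig were the cationic amino acid carrier SLC7A3 (0 and 64.3 RPM), the cystine carrier SLC7A11 (0 and 25.5 RPM, unequal spans) and CRABP2, which binds retinoic acid (0.49 and 167 RPM).

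Of 45 compared lysosomal genes, 1 was higher in cow and 9 in pig, 22.2% in all beside 29.7% of all compared symbols. A negative gap was found for 32 of the 45, beside 4783 of all 9834, and the median gap was -6.76 points. ASAH1 (acid ceramidase) had 8.74 and 342 RPM and the peptidase TPP1 had 3.67 and 124 RPM, TPP1 on unequal spans. CTSC, a cathepsin, was also higher in pig. Several of the members with the highest pig levels were not called by percentile: CTSD (cathepsin D) had 46.9 and 2006 RPM, NPC2 31.3 and 1989 RPM, GM2A 69.9 and 3037 RPM and PSAP (prosaposin) 1010 and 3543 RPM. The member higher in cow was TFE3, with 40.1 and 5.36 RPM. On quantile-normalised log2 values with a difference of 2 or more, 18 were higher in pig and 2 in cow. Overlapping rows were frequent here: of the members without them 3 were higher in pig, and 2 when percentiles were ranked anew without such rows.

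**Figure D5:**
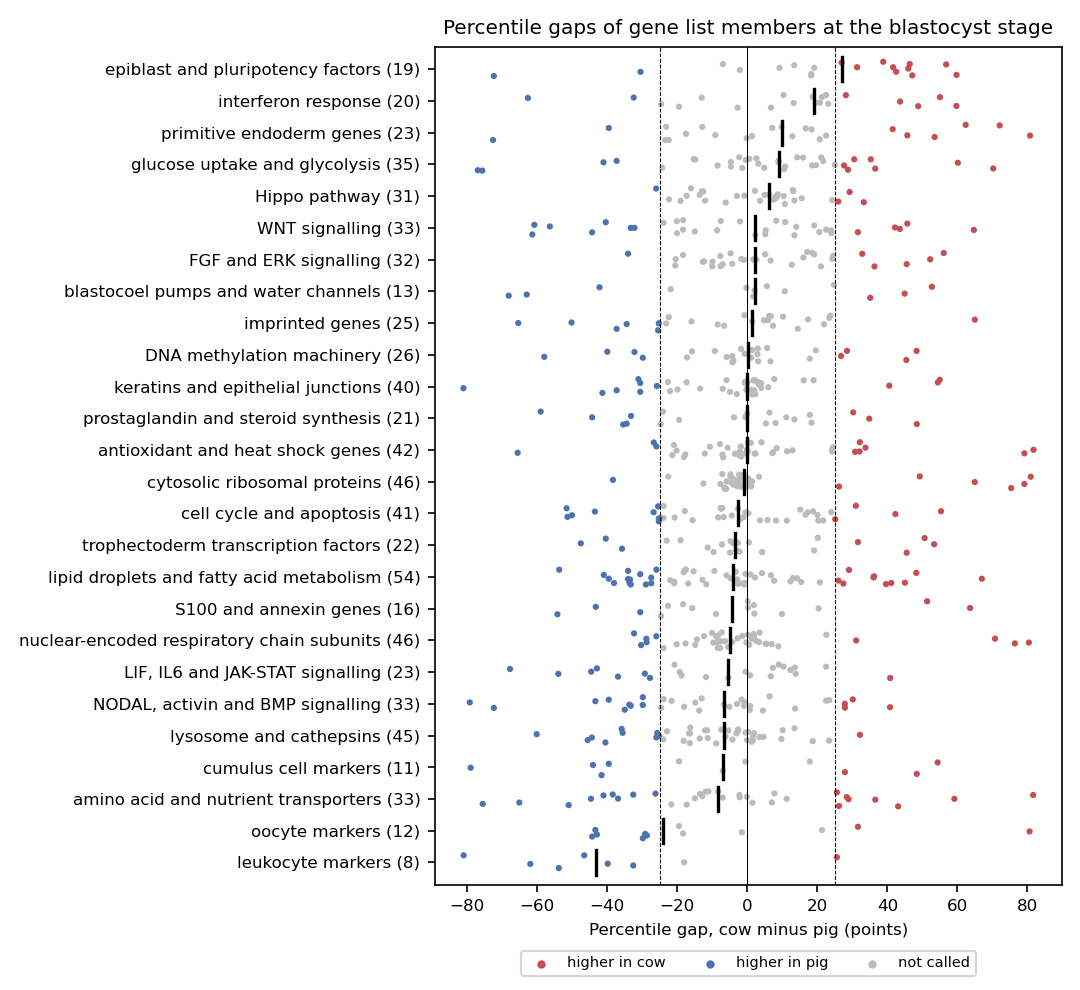
Each point is a compared member of a gene list (number compared in brackets), placed by its percentile gap, cow minus pig, in points on the x axis; points are spread vertically at random within a list, black bars are list medians and dashed lines mark 25 points. Lists are ordered by median, with leukocyte markers (-43.25) and oocyte markers (-24.12) lowest and the epiblast and pluripotency list (26.94) highest; members of most lists lie on both sides of 0.

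In the antioxidant and heat shock list, 6 of 42 were higher in cow and 3 in pig. This was 21.4% in all, beside 29.7%, with a median gap of -0.05 points. HSPB1, a small heat shock protein, had 633 RPM in cow and 0 reads in pig, on rows of unequal span that overlap others, and GSS, a glutathione synthesis enzyme, had 0.78 and 67.0 RPM. Subunits of the respiratory chain and of the ribosome serve functions that every cell uses. Of 46 compared respiratory chain subunits, 4 were higher in cow and 5 in pig (19.6% in all, beside 29.7% of all compared symbols). Of the 25 with a similar span, 1 was higher in cow and 1 in pig. Of 46 compared ribosomal proteins, 6 were higher in cow and 1 in pig (15.2% in all), and of the 25 with a similar span none in either direction. The ribosomal gaps included RPL17 with 194 and 0 RPM, whose cow row is 8.4 times as long as the pig row. Ribosomal protein genes have many near-identical copies, so their values are uncertain.

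Among the genes of DNA methylation, 4 of 26 were higher in cow and 4 in pig (30.8% in all, beside 29.7%), with a median gap of 0.15 points. TET enzymes oxidise methylated cytosine. TET1 was high in both libraries, with 625 and 420 RPM and a gap of 1.31 points. TET2 had 157, 170, 48.2, 18.7 and 16.7 RPM over the stages in cow and 70.5, 98.3, 94.4, 92.9 and 488 RPM in pig, a gap of -32.3 points with a cow row of 0.32 times the pig length. TET3 stood the other way, with 28.6 and 5.36 RPM and a cow row of 2.3 times the pig length, a call lost to counting error. The maintenance enzyme DNMT1 had 22.2 and 30.0 RPM and the de novo enzymes DNMT3A and DNMT3B had 178 and 42.4 RPM and 157 and 114 RPM, with gaps of 19.5 and 5.66 points for the latter pair. ZFP57, which protects imprints from demethylation, had 0.99 RPM in cow and 39.9 RPM in pig, a gap of -58.0 points. Its rows have a similar span and overlap another row.

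Of 25 compared imprinted genes, 1 was higher in cow and 6 in pig (28% in all, beside 29.7%), with a median gap of 1.40 points. MEST had 45.0, 33.3, 7.36, 3.33 and 0.21 RPM over the stages in cow and 200, 207, 225, 28.6 and 65.7 RPM in pig, with a cow row of 0.21 times the pig length. IGF2R, the receptor that clears IGF2, had 23.4 and 309 RPM. Its gap of -25.3 points was -23.2 points at the nearest ends, just short of the threshold. PEG10, a retrotransposon-derived placental gene, had 0.49 and 7.78 RPM, and its gap of -34.5 points was -12.9 points at the nearest ends. Both had a similar span and both calls were lost to counting error. ATP10A had 45.8 RPM in cow and 0.54 RPM in pig, on rows of similar span that overlap another.

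Of 41 compared cell cycle and apoptosis genes, 4 were higher in cow and 9 in pig (31.7% in all, beside 29.7%), with a median gap of -2.65 points. AURKB, a kinase of chromosome segregation, had 25.2 and 0.80 RPM. CDK6 had 6.13 and 245 RPM with a similar span. CDK2 (4.51 and 585 RPM) and MDM2, a ubiquitin ligase (26.4 and 782 RPM), were higher in pig on cow rows of 0.17 and 0.33 times the pig length, and the call of MDM2 was lost to counting error. Of 16 S100 and annexin genes, S100A2 (81.1 and 1.61 RPM) and S100A5 (41.9 and 0 RPM) were higher in cow with a similar span, and S100A11 (5.57 and 194 RPM), ANXA9 and ANXA13 were higher in pig with none of similar span. The share called on this list was 31.2%, beside 29.7% of all compared symbols, and its median gap was -4.44 points.

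The most abundant paired symbols outside the mitochondrial chromosome were FN1, ACTB, SND1, KRT8 and TPM4 in cow and ANKRD44, TPT1, KRT8, PSAP and LDHB in pig. ACTB (beta-actin) had 3506 and 2827 RPM. SND1 and TPM4 (a tropomyosin) had 1499 and 1489 RPM in cow and 297 and 180 RPM in pig, still above percentile 94 there. ANKRD44 had 3849 RPM in pig and 42.5 RPM in cow, with 4607 RPM already in the pig morula and a cow row of 0.28 times the pig length. TPT1, a translationally controlled protein, had 1022 and 3724 RPM.

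Markers of other cells that an embryo sample could hold were unequal between both libraries. Of 7 leukocyte markers fixed for this check, 5 had 0 reads in the cow blastocyst (sum 1.90 RPM). In pig LAPTM5 and TYROBP had 0 reads and the other 5 had reads, and the sum was 716 RPM against 29.0 RPM in the pig morula. Most of this was CD74, the invariant chain, with 650 RPM on a pig row of 33.9 kb against 7.76 kb in cow, with an overlap with another row. PTPRC (CD45) had 1.55 RPM in cow and 11 RPM in pig. Of the wider leukocyte list, 6 of 8 compared members were higher in pig and 1 in cow (87.5% in all, beside 29.7% of all compared symbols). Oocyte genes GDF9 (0 and 15.3 RPM, unequal spans), BMP15 (0 and 5.09 RPM) and KPNA7 (0 and 16.1 RPM) were higher in pig. On that list 6 of 12 were higher in pig and 2 in cow (66.7% in all), with a median gap of -24.12 points. Of 11 compared cumulus cell genes, 3 were higher in cow and 4 in pig (63.6% in all). FSHR was among the 3, with 23.8 and 0.54 RPM, and VCAN among the 4, with 0 and 302 RPM on unequal spans. Of the 3 paired markers of uterine and oviduct epithelium, FOXJ1 and WFDC2 had 0 reads in both. ESR1, the third, had 11.4 RPM in cow and 6.97 RPM in pig. Among markers not paired, PAX8 and OVGP1 had 3.95 and 0.28 RPM in the cow table, and PGR had 10.7 RPM in the pig table. The part of other cells or of remaining oocyte RNA in the gaps above was not tested.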

How the data were processed

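Total RNA was measured in 10 libraries, 1 for each stage and species. Per the submitters' processing notes, reads were trimmed with Trim Galore 0.6.4 and aligned with HISAT2 2.1.0, with the builds UMD3.1 (cow) and Sscrofa11.1 (pig). The program that counted the reads, its use of strand and the treatment of duplicates are not given in the sources used here, so reads of overlapping and antisense genes cannot be told apart. The authors deposited 1 table per species of log2 values per gene row. The lowest values fit log2 RPM with 1 read as the second lowest value and 0 reads written as 0.9 of a read, so whole reads and RPM were recovered from the deposited log2 values. No per-sample column was left unmapped.

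Percentiles, gaps and intervals were computed in Python 3.11.15 with pandas 2.3.3, numpy 2.4.6 and scipy 1.17.1, and the steps were tested on simulated data. Of symbols on several rows (127 in cow and 78 in pig), the row with the highest mean was used. Overlap with another row was counted for 1036 cow and 4017 pig rows. With 1 library per group no test was run. The tables pair no row with a sequence, and no genome was used here. Genes were named by a rule: the 12 largest gaps per direction (at least 20 RPM, no overlap), up to 3 called members per list and direction, the 5 largest gaps per direction that were under 10 points at the morula, the 5 most abundant symbols of each library and 48 fixed genes, of which 37 were paired. Some genes under this rule are not reported here. Further list members were chosen after their values were seen. The members and the 28 gene lists were chosen with earlier results of these data known. Alternatives changed the ranked population, the floor, the threshold, the measure, counting error, repeated, overlapping and mitochondrial rows, and the span.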

Additional observations from a re-analysis of the deposited data

Results flagged for a closer look

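For 14 named genes the level moved opposite ways between morula and blastocyst in both species by at least 2 on log2(RPM + 1). Each change is a single library against a single library, and the difference between species was not tested. Higher in the cow blastocyst than in the cow morula, and lower in pig, were KIT (4.68 in cow and -4.0 in pig), CCND2 (3.57 and -2.41), IGFBP2 (3.07 and -3.00), SMUG1 (3.03 and -2.81) and SLC9A9 (2.79 and -2.47). SALL1 (2.67 and -2.22), SLC16A7 (2.62 and -2.87), NID1 (2.46 and -2.81), PORCN (2.29 and -5.07) and IFNGR1 (2.01 and -2.52) had the same pattern.

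Lower in the cow blastocyst than in the cow morula, and higher in pig, were AQP3 (-2.34 in cow and 5.80 in pig), BMPR1B (-2.67 and 2.51), ZFP57 (-2.63 and 2.48) and DKK3 (-2.28 and 3.67). The gaps of KIT and KITLG, receptor and ligand, had opposite signs at the blastocyst stage (80.6 and -44.1 points), and so did those of PDGFRA and its ligand PDGFC (53.5 and -80.5 points).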

How the results depend on the processing

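No paired analysis was possible because each group has 1 library. No symbol called in one direction was called in the other under any alternative tried, and the cause of each move below was not tested beyond what the alternative itself takes away. The count higher in cow (1465) was 732 at 35 points, 556 between the nearest ends of the 95% Wilson intervals, 947 without overlapping genes, 846 with percentiles ranked over similar spans alone and 596 over similar spans without overlaps, the last chosen after seeing the data. The count higher in pig (1451) was 778, 989, 950, 829 and 585 in that order. At the nearest ends, 0 pig reads take the upper Wilson limit of 1.03 RPM, just past the tie floor of 1 RPM. The median absolute gap (15.6) was 11.7 over all gene rows, 13.8 without the floor, 6.92 at the nearest ends, 13.9 over similar spans and 13.4 without overlaps as well. Of 165 named genes called, 149 kept the call over all gene rows, 134 at 35 points and 137 at the nearest ends. IL1RAP and SRXN1, higher in pig, had a gap of 1.19 points with a floor of 5 RPM.

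In the epiblast list, the 10 higher in cow were 5 at the nearest ends, 6 over similar spans and 5 without overlaps as well, and the 2 higher in pig were 1 over all gene rows, at 35 points, without overlaps, over similar spans and with both. In the primitive endoderm list, the 6 higher in cow were 2 over similar spans without overlaps, and the 2 higher in pig were 4 over all gene rows, without the floor and at 5 RPM, and 5 at 20 points. In the lipid list, the 10 higher in cow were 3 at the nearest ends, 6 without overlaps, 6 over similar spans and 5 with both, and the 14 higher in pig were 4 at 35 points, 7 at the nearest ends, 9 over similar spans and 7 with both. In the lysosome list, the 1 higher in cow was 2 at 20 points and by quantile normalisation and 0 at 35 points, and the 9 higher in pig were 18 by quantile normalisation, 5 at the nearest ends, 2 without overlaps and 1 over similar spans without overlaps. Over all compared symbols, 5.65% were higher in cow and 10.1% in pig at the nearest ends. Depth limits the calls that rest on 0 pig reads.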
